A study of Mus musculus with 3 samples.

Results

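Ifit1, Ifit2 and Ifit3 are interferon-induced antiviral genes, and their messenger RNA was followed here in single phagocytes of the mouse Peyer's patch, the lymphoid tissue of the small intestine. The 3 genes were chosen by name and are 3 of the 27998 genes in the deposited tables. They were counted in 3 libraries, separately in each type of phagocyte, as the level over all cells of a type, the share of cells in which a transcript was seen, and the level in those cells.

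Each library pooled CD11c+ phagocytes from 12 female C57BL/6Rj mice. The Control library came from 88 Peyer's patches of untreated mice, which received no mock injection. The CpG library came from 85 patches taken 9 h after an intraperitoneal injection of 125 µg CpG in PBS, and the R848 library from 90 patches taken 9 h after 10 µg R848 by the same route. CpG is a synthetic DNA that activates Toll-like receptor 9, and R848 (resiquimod) is a small molecule that activates Toll-like receptor 7 in mice. Live conventional dendritic cells of type 1 (cDC1) and type 2 (cDC2), LysoDC (lysozyme-expressing dendritic cells of the patch) and macrophages were sorted and then sequenced with 10x Genomics 3′ chemistry. In this chemistry each transcript captured in a cell carries a unique molecular identifier (UMI), so that a count of UMIs is a count of molecules. With 1 library per treatment there is no replicate of any condition, and no statistical test was possible. All intervals below are 95% exact counting intervals, which leave out the variation between mice and between library preparations. Those of levels, ratios and shares of UMIs count each UMI as independent. They also leave out the uneven spread of UMIs over cells, and are too narrow where few cells hold many UMIs.

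Ifit genes are silent or nearly so in most resting cells. Type I and type III interferons bind their receptors, and signalling from there assembles a complex of transcription factors that binds the interferon-stimulated response element in the promoters of many genes, among which the Ifit genes are some of the most strongly induced. Ifit proteins are built from helical tetratricopeptide repeats. Ifit1 binds the 5′ end of RNA that lacks the methylation of a host cap and so blocks translation of viral messages. Ifit2 and Ifit3 form complexes with other Ifit proteins and have been linked to restriction of several viruses, and Ifit proteins can also bind subunits of translation initiation factor 3. In phagocytes these genes are often read as a sign of an interferon response. Whether an interferon signal reached the cells studied here was not tested.

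The Ifit genes form a cluster on mouse chromosome 19 (GRCm38, GENCODE M21 annotation). Ifit2 (ENSMUSG00000045932) spans chr19:34550694-34576419 on the plus strand and its longest coding transcript has 3 exons. Ifit3 (ENSMUSG00000074896) spans chr19:34583531-34588731, also on the plus strand, and has 2 exons. Ifit1 (ENSMUSG00000034459) lies at the other end of the cluster at chr19:34640871-34650009 on the plus strand and has 2 exons. Between Ifit3 and Ifit1 lie 3 related genes, Ifit1bl1 (minus strand), Ifit3b (plus) and Ifit1bl2 (minus). None of the 6 genes overlaps another in that annotation. RefSeq's promoter table gives starts of Ifit1bl1 at chr19:34601968 and chr19:34599427 on the minus strand, both at lower coordinates than Ifit1. The sources used here do not say whether reads were counted by strand.

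The stretches just before the transcription start of the members are shown because the interferon-stimulated response element acts there. They come from RefSeq's promoter table (GRCm38.p6, plus strand), read 5′ to 3′, and capitals mark each match, on either strand, to the core of that element: GAAA, then any 2 bases, then GAAA. On the strand shown such a match can read TTTC, any 2 bases, TTTC. For Ifit1 the stretch is chr19:34640744-34640888, the 145 bases between its start and that of Ifit1bl2, which is read the other way. For Ifit2 it is chr19:34550444-34550693 and for Ifit3 chr19:34583279-34583528, each 250 bases long.
Ifit1: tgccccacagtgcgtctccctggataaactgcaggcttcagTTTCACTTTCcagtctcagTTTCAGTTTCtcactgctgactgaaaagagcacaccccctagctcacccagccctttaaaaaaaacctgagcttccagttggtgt
Ifit3: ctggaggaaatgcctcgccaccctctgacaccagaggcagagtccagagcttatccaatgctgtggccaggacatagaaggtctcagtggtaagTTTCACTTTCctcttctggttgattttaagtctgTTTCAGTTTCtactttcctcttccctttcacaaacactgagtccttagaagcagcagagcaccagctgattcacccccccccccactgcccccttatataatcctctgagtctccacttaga
Ifit2: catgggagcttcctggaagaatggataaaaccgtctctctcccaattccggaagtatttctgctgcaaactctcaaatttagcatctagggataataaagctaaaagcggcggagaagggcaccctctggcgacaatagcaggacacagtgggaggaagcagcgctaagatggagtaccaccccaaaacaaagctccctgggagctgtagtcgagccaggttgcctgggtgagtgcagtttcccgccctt

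Ifit1 and Ifit3 each held 2 matches to that core, all on the opposite strand. In Ifit1 they began 104 and 85 bases before the start, and in Ifit3 156 and 122 bases before it. Over RefSeq windows of 300 bases (250 before to 50 after the start), 3.44% of 32851 promoters held at least 1 match and 0.225% held 2 or more. Neither of the 2 RefSeq windows of Ifit2 held a match, which says only that these letters are not in those windows. The first Ifit2 window held 1 match to TTCNNNGAA, the core of the gamma-activated sequence, at 241 bases before the start. Of the same 32851 promoters, 8.30% held at least 1 match to that core. Because Ifit1bl2 starts so close to Ifit1 and on the other strand, its window holds the same 2 matches as that of Ifit1.

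Cells were sorted into types by summed levels of marker genes, with the same limits in all 3 libraries. After removal of low-quality barcodes and likely doublets, 5079 Control, 4821 CpG and 4898 R848 cells were left, of 5344, 5049 and 5133 barcodes, and pairs of libraries shared 33 to 42 barcode sequences. Macrophage-like and LysoDC-like cells were both lysozyme-high and were separated by a Cd4 UMI: Cd4 stood at 265 CPM (UMIs of the gene per 1000000 UMIs of all cells of the type) in macrophage-like and at 0 in LysoDC-like Control cells. Cells with a missed Cd4 transcript can therefore sit among the LysoDC-like cells. Mature DC-like cells were marked by Ccr7 (2270 CPM against 47.4 in resting cDC2-like Control cells), and resting cDC1-like cells by Xcr1 (681 CPM). The cDC2 marker Cd209a stood at 146 CPM in resting cDC2-like cells of Control but at 1.33 in those of CpG and 34.3 in those of R848, so the name of that type rests on its other markers after treatment. Markers of T cells were near 0 in every type (Cd3e at most 0.8 CPM). Resting cDC1-like cells numbered 434 in Control, 12 in CpG and 5 in R848, too few to compare, so that the comparisons cover 4 types. Mature DC-like cells numbered 368, 2745 and 2250 in the same order, and resting cDC2-like cells 1715, 421 and 405. The cells gated as 1 type may therefore differ in origin between the libraries. A ratio to Control compares cells of the same gate and need not be a change within the same cells, above all in mature DC-like cells. Which cells became mature was not tested. A median cell held 5022 to 5624 UMIs in the mature DC-like type and 9713 to 13464 in the LysoDC-like and macrophage-like types. This difference in depth moves with the type, so shares of positive cells are also given after thinning.

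Ifit1, Ifit2 and Ifit3 were higher in both treated libraries than in the Control library in all 4 compared types. A gene was called higher where its level, with 5 CPM added, was at least 2-fold higher, the counting interval of the ratio left out 1, and the higher library held at least 20 UMIs. By this rule 12 of 12 pairs of member and type were called higher in CpG, and 12 of 12 in R848. The background of calls over all genes was low: in CpG against Control, 1.69% of genes were called higher in resting cDC2-like cells, 5.70% in mature DC-like, 1.64% in LysoDC-like and 2.37% in macrophage-like cells. In R848 against Control the shares called higher were 1.28%, 3.78%, 2.32% and 3.86% in the same order. Both comparisons use the same Control library, so they are not independent of each other.

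Ifit1, the sensor of incompletely capped RNA, stood at 13.1 CPM (interval 11.3 to 15.1) in LysoDC-like Control cells, at 126 (119 to 132) in CpG and at 165 (158 to 172) in R848. In macrophage-like cells it stood at 14.8 (11.7 to 18.5), 177 (165 to 189) and 264 (252 to 276) CPM. In resting cDC2-like cells the levels were 5.71 (4.39 to 7.31), 66.7 (58.7 to 75.5) and 66.7 (58.0 to 76.3) CPM. No interval of a treated library overlapped that of Control in these types. In mature DC-like cells it stood at 3.47 CPM (1.40 to 7.16, from 7 UMIs) in Control, at 114 (109 to 120) in CpG and at 80.5 (75.8 to 85.4) in R848. The ratio of CpG to Control was 9.59 (8.24 to 11.2) in LysoDC-like, 11.9 (9.43 to 15.2) in macrophage-like, 11.7 (8.83 to 15.7) in resting cDC2-like and 32.9 (16 to 82.0) in mature DC-like cells. The ratio of R848 to Control was 12.6 (10.9 to 14.7), 17.8 (14.2 to 22.7), 11.7 (8.77 to 15.7) and 23.2 (11.2 to 57.7) in the same order. The wide intervals in mature DC-like cells come from the few Control UMIs there.

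Ifit2, which partners other Ifit proteins, stood at 7.27 CPM (5.95 to 8.79) in LysoDC-like Control cells, at 121 (115 to 127) in CpG and at 122 (116 to 128) in R848. The corresponding levels in macrophage-like cells were 14.4 (11.4 to 18.1), 213 (200 to 226) and 218 (207 to 229) CPM. Levels were lower in resting cDC2-like cells, at 3.17 (2.21 to 4.41), 31.2 (25.8 to 37.4) and 26 (20.7 to 32.3) CPM. They were about the same in treated mature DC-like cells, at 27.2 (24.8 to 29.8) in CpG and 25.8 (23.2 to 28.6) in R848, above 1.49 (0.307 to 4.35, from 3 UMIs) in Control. The ratio of CpG to Control was 16.6 (13.6 to 20.5) in LysoDC-like and 14.8 (11.7 to 18.9) in macrophage-like cells, and that of R848 to Control 16.8 (13.8 to 20.6) and 15.1 (12.0 to 19.3). In resting cDC2-like cells the ratios were 9.84 (6.70 to 14.8) for CpG and 8.21 (5.46 to 12.6) for R848, and in mature DC-like cells 18.3 (6.22 to 89.0) and 17.3 (5.88 to 84.4). For R848 in resting cDC2-like cells the difference was 1.92 on the log2 scale with 5 CPM added, and with 20 CPM added it was 0.99, just under the 2-fold limit.

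Ifit3, the partner that stabilises Ifit1 complexes in human cells, stood at 5.42 CPM (4.29 to 6.75) in LysoDC-like Control cells, at 144 (137 to 151) in CpG and at 137 (131 to 143) in R848. In macrophage-like cells the levels were 6.93 (4.85 to 9.59), 231 (218 to 245) and 236 (224 to 247) CPM. Resting cDC2-like cells followed at 6.35 (4.95 to 8.02), 95 (85.4 to 105) and 76.8 (67.5 to 87.1) CPM. Mature DC-like cells had the lowest treated levels of the 4 types, 38.8 (35.9 to 41.9) in CpG and 32.1 (29.1 to 35.2) in R848, from 1.99 (0.541 to 5.08, from 4 UMIs) in Control. The ratio of CpG to Control was 26.5 (21.2 to 33.7) in LysoDC-like, 33.3 (23.9 to 47.8) in macrophage-like, 15 (11.6 to 19.6) in resting cDC2-like and 19.5 (7.59 to 71.9) in mature DC-like cells. The ratio of R848 to Control was 25.2 (20.1 to 32.0), 34.0 (24.4 to 48.7), 12.1 (9.24 to 16) and 16.1 (6.26 to 59.5) in the same order. In LysoDC-like and macrophage-like cells the ratio of Ifit3 lay above that of Ifit1 in both treated libraries, with intervals that did not overlap. Of the 500 bases at the 3′ end of the Ifit3 transcript, 14.9% of all 50-base stretches are also found in Ifit3b, so that part of the Ifit3 reads may have been split or lost between the pair. Ifit1 and Ifit2 shared no such stretch with another gene of the cluster.

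**Figure D1:**
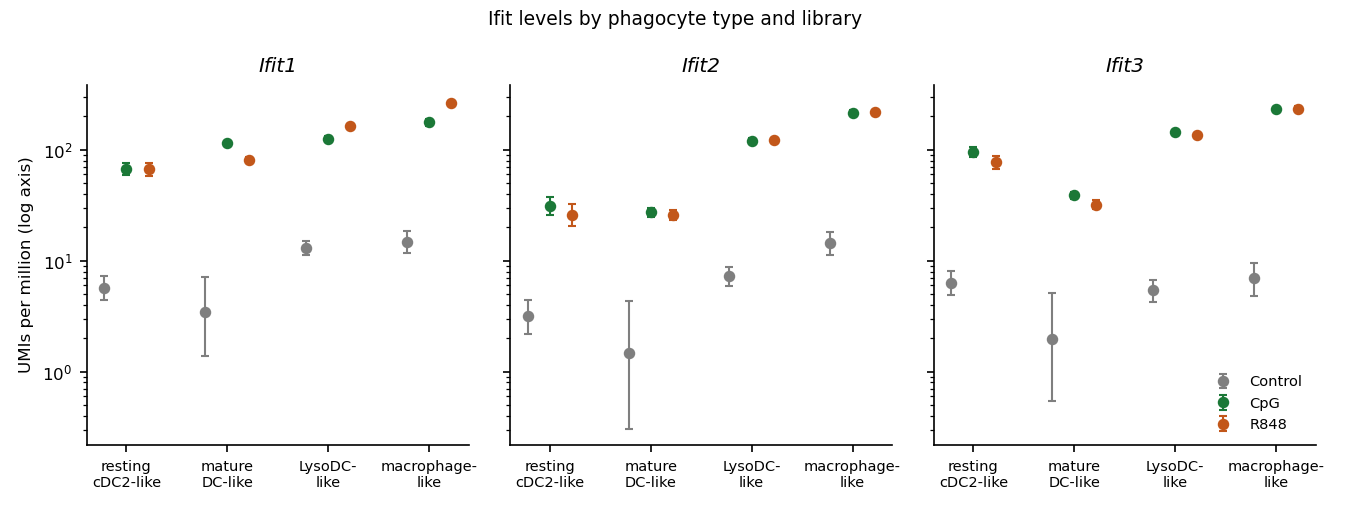
Level of Ifit1, Ifit2 and Ifit3 in UMIs per 1000000 (log axis) in 4 phagocyte types of the Control (grey), CpG (green) and R848 (orange) libraries, with 1 library per point and bars for the 95% exact Poisson interval. All treated points lie above the Control points, and treated mature DC-like cells are lowest of the 4 types for Ifit3 (38.8 and 32.1) but not for Ifit1 (114 and 80.5).

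The order of the types differed between the members. In the treated libraries Ifit1 was highest in macrophage-like and next in LysoDC-like cells, with intervals apart from each other. Mature DC-like cells came next for Ifit1 in both libraries and resting cDC2-like cells last. In CpG the interval of mature DC-like cells overlapped that of LysoDC-like cells at its upper end, and in R848 that of resting cDC2-like cells at its lower end. For Ifit2 macrophage-like and LysoDC-like cells led again, and resting cDC2-like and mature DC-like cells did not differ beyond their intervals. For Ifit3 the last 2 places were swapped, with mature DC-like cells below resting cDC2-like cells in both treated libraries. In Control, macrophage-like and LysoDC-like cells did not differ beyond their intervals for Ifit1 and for Ifit3, and macrophage-like cells were higher for Ifit2. Resting cDC1-like Control cells held Ifit1 at 1.53 CPM (0.496 to 3.57), Ifit2 at 5.81 (3.50 to 9.07) and Ifit3 at 1.83 (0.673 to 3.99). Fewer transcripts per cell and fewer expressing cells both lower such a summed level, and the shares of positive cells given next bear on which it was.

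A UMI of at least 1 member was found in 12.2% (10.6 to 14.0, exact Clopper-Pearson interval) of LysoDC-like Control cells, in 78.9% (76.0 to 81.6) of those in CpG and in 79.4% (77.0 to 81.7) of those in R848. The shares in macrophage-like cells were 18.2% (15 to 21.8), 92.7% (89.6 to 95.1) and 93.5% (91.2 to 95.4). They were lower in resting cDC2-like cells, at 5.42% (4.40 to 6.60), 48.0% (43.1 to 52.9) and 40.2% (35.4 to 45.2). Mature DC-like cells had 2.17% (0.943 to 4.24), 34.4% (32.6 to 36.2) and 30.8% (28.9 to 32.7). Thus most LysoDC-like and macrophage-like cells of the treated libraries had a detected Ifit transcript, and smaller shares of resting cDC2-like and mature DC-like cells did. For resting cDC2-like cells of CpG the interval reached 52.9%, so a minority is not established there. In resting cDC1-like Control cells the share was 2.53% (1.27 to 4.49).

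Free RNA released by broken cells also gives UMIs. Complement C1q transcripts in mature DC-like cells put it at 3.93% of a cell's UMIs in the Control library, at 2.47% for CpG and at 2.77% for R848. These values come from mature DC-like cells of a stricter gate, and all mature DC-like cells gave 4.71%, 2.53% and 4.94%. The C1q genes are among the markers whose sum must be low in mature DC-like cells, so the gate itself can lower both estimates. None of these types is known to lack Ifit transcripts, so no type served as a blank. Free RNA alone would make 0.831% of LysoDC-like Control cells positive, 9.57% of those in CpG and 11.2% of those in R848, and 0.460%, 4.51% and 5.55% of mature DC-like cells. With the estimate from all mature DC-like cells, free RNA alone would make 19% of LysoDC-like and 9.63% of mature DC-like cells of R848 positive. All shares of the 4 types were above the share expected from free RNA under both estimates. After all cells were thinned to 3000 UMIs, which left out the 1 to 205 shallower cells of each type and library, the shares in LysoDC-like cells were 4.98%, 49.8% and 51.5% in Control, CpG and R848. Macrophage-like cells then had 7.83%, 69.9% and 72.4%, resting cDC2-like cells 2.87%, 28.3% and 23.0%, and mature DC-like cells 1.33%, 24.4% and 21.1%. The order of the 4 types in each library was as before thinning.

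**Figure D2:**
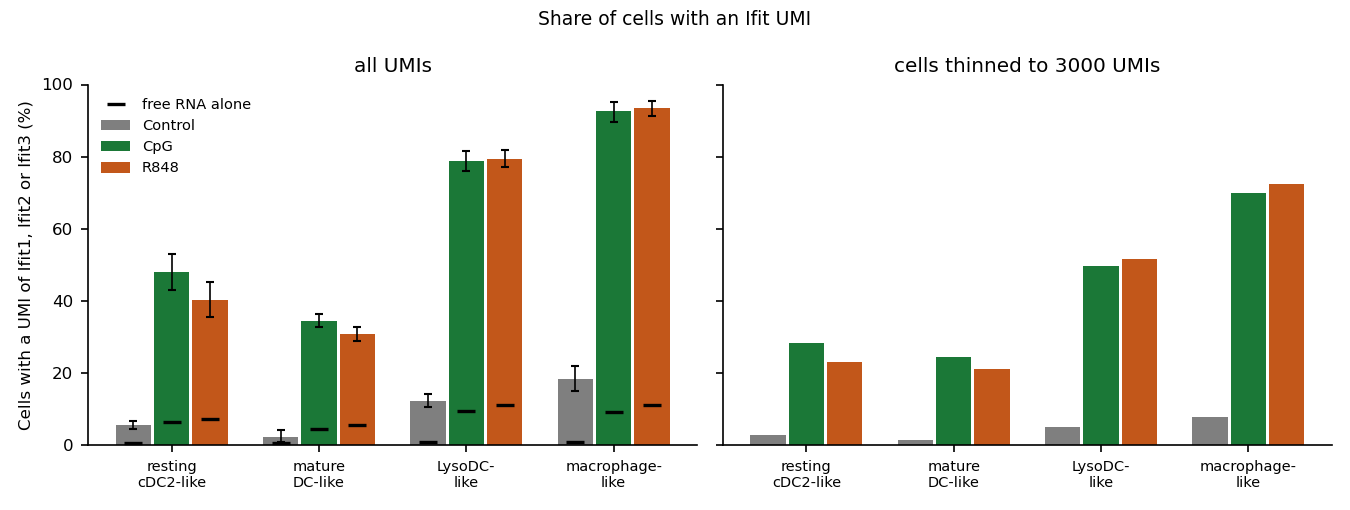
Share of cells (%) with a UMI of Ifit1, Ifit2 or Ifit3 in 4 phagocyte types of the 3 libraries, at full depth (left, bars for 95% exact binomial intervals, black dashes for the share that free RNA alone would give) and after thinning each cell to 3000 UMIs (right). Macrophage-like cells of the treated libraries are highest on both sides, at 92.7% and 93.5% and, thinned, at 69.9% and 72.4%.

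Among positive cells, too, more molecules were found after treatment in lysozyme-high cells. Positive macrophage-like cells of Control held on average 1.94 UMIs of the 3 genes, those of CpG 8.60 and those of R848 9.51, and positive LysoDC-like cells 2.09, 6.66 and 6.71. Positive resting cDC2-like cells held 1.81, 3.58 and 3.28 UMIs and positive mature DC-like cells 1.75 (8 cells), 3.22 and 2.71. A positive cell holds at least 1 UMI by definition, so in shallow cells this average has a floor. Over the UMIs of positive cells alone, the level in CpG was 663 CPM in macrophage-like, 474 in LysoDC-like, 399 in resting cDC2-like and 487 in mature DC-like cells. On this scale the types of the CpG library were closer to each other than in level over all cells (621, 390, 193 and 180 CPM). Taking positive cells alone raises this level by definition, and most in types with few positive cells. A single UMI also weighs more in a shallow cell, so the closeness follows in part from the choice of cells and tests nothing.

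The UMIs were unevenly spread over cells of 1 type, which the intervals of levels and ratios do not take into account. In the CpG library 50% of all member UMIs were held by 74 of 384 macrophage-like cells (19.3%), by 103 of 858 LysoDC-like cells (12.0%), by 27 of 421 resting cDC2-like cells (6.41%) and by 110 of 2745 mature DC-like cells (4.01%). The R848 library gave 18.5%, 11.7%, 3.46% and 3.73% in the same order. Cells with 6 or more UMIs made up 51.3% of macrophage-like and 29.1% of LysoDC-like cells in CpG, against 4.41% of mature DC-like cells. The highest single cell was a LysoDC-like cell of the CpG library with 96 member UMIs, and the highest mature DC-like cell there held 74. Mature DC-like cells thus combined many cells without a detected transcript with a few that held as many as the highest macrophage-like cells, up to 67 in that library.

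**Figure D3:**
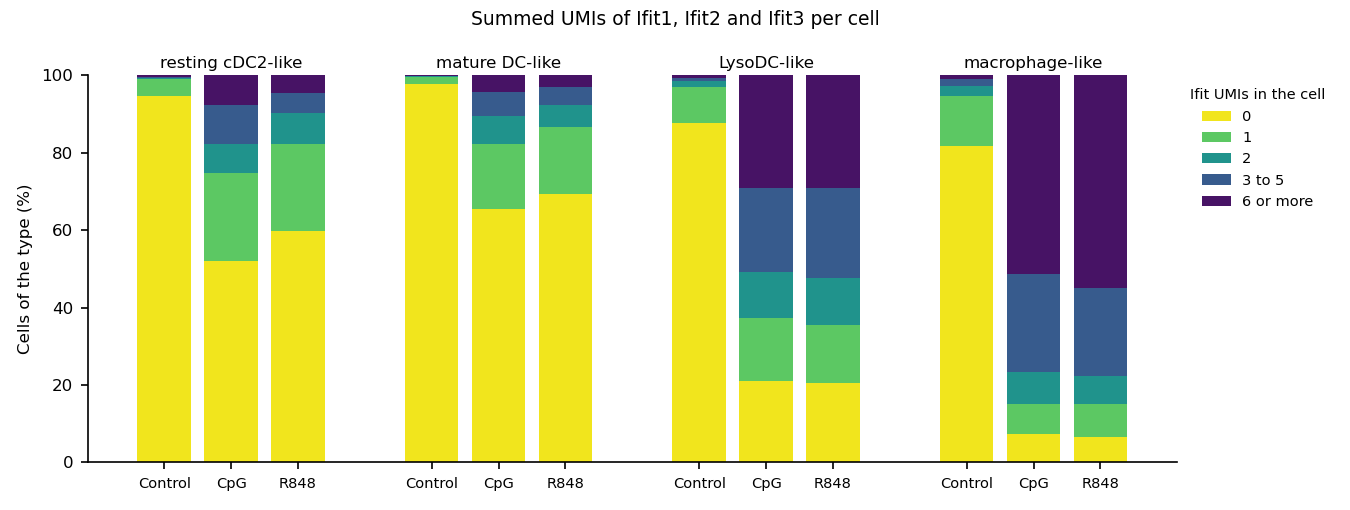
Share of cells (%) by the number of summed UMIs of Ifit1, Ifit2 and Ifit3 in the cell (colours from 0 to 6 or more), for each of 4 phagocyte types and 3 libraries. In the treated libraries 51.3% and 55.0% of macrophage-like cells held 6 or more UMIs, and 65.6% and 69.2% of mature DC-like cells held none.

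In untreated mice much of the Ifit signal came from few cells. The Control cells were clustered on their 2000 most variable genes. In 1 cluster of 46 cells the summed level of other interferon-induced effector genes was highest, 8689 CPM against 4768 in the next of 17 clusters. Members and other interferon-induced genes were not kept out of the clustering. The level of the members in this cluster, 262 CPM for Ifit1, 176 for Ifit2 and 152 for Ifit3, therefore describes the cluster and tests nothing. It held 27 LysoDC-like cells, or 1.84% of that type, with 184 of its 376 member UMIs (48.9%), and 13 macrophage-like cells, or 2.44%, with 84 of 188 (44.7%). It held no mature DC-like or resting cDC1-like cell, and its 2 resting cDC2-like cells held no member UMI. Beside macrophage-like cells of the CpG library (177, 213 and 231 CPM), these 46 cells were higher in Ifit1 and lower in Ifit2 and Ifit3.

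Without those cells the Control levels in LysoDC-like cells were 7.40 CPM for Ifit1, 4.54 for Ifit2 and 1.47 for Ifit3, and in macrophage-like cells 8.51, 7.13 and 4.95. The ratio of CpG to Control in LysoDC-like cells then became 17.0 (13.9 to 20.9) for Ifit1, 26.6 (20.8 to 34.7) for Ifit2 and 98.0 (63.9 to 159) for Ifit3. In macrophage-like cells it became 20.7 (15.3 to 28.9), 29.9 (21.5 to 42.9) and 46.7 (31.5 to 72.5). For R848 the ratios were 22.3 (18.3 to 27.3), 26.8 (21 to 34.9) and 93.1 (60.8 to 151) in LysoDC-like and 31.0 (22.9 to 43), 30.6 (22 to 43.8) and 47.6 (32.1 to 73.8) in macrophage-like cells. These cells were chosen as the highest in interferon-induced genes and were left out of Control alone, so higher ratios follow from the choice. The corresponding clusters of CpG (264 cells, 223 of them LysoDC-like) and R848 (94 cells) were kept. All 12 calls of each comparison stood with and without the Control cells.

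The members were often found together in the same cell. All 3 were detected in 51.8% of macrophage-like cells of CpG and 55.6% of those of R848, in 33.1% and 32.0% of LysoDC-like cells, in 7.36% and 4.94% of resting cDC2-like cells and in 3.21% and 2.36% of mature DC-like cells. In mature DC-like cells of the CpG library Ifit1 stood at 373 CPM in the 437 cells with a UMI of Ifit2 or Ifit3 and at 60.5 CPM in the 2308 cells without. Ifit2 there stood at 65.4 and 7.22 CPM in cells with and without another member, and Ifit3 at 95.7 and 9.75 CPM. In LysoDC-like cells of that library the contrasts were smaller, 159 and 35.5 CPM for Ifit1 and 181 and 29.5 CPM for Ifit3. Positive cells were deeper than negative ones (a median of 6133 and 5350 UMIs in the mature and 13915 and 11733 in the LysoDC-like cells of CpG), and the part of depth in these contrasts was not tested.

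Cells with 2 or 3 members were also compared with cells without an Ifit UMI for 6 other interferon-induced genes. Over the 4 types and 3 libraries the level was higher in the former, with intervals apart, in 67 of 72 comparisons. The intervals overlapped in 5, of which 4 were in Control and 1 in R848. All comparisons in mature DC-like Control cells rest on 1 cell with 2 or 3 members. That cell held no UMI of Rsad2, Isg20 or Rtp4, and for these genes the intervals overlapped. Resting cDC2-like Control cells had 13 cells with 2 or 3 members. The overlap in R848 was Irf7 in macrophage-like cells of R848, at 1057 CPM (1031 to 1084) and 1008 (913 to 1110). Rsad2, which encodes the antiviral enzyme viperin, stood in LysoDC-like Control cells at 334 CPM (274 to 404) in the 31 cells with 2 or 3 members and at 11.5 (9.71 to 13.5) in the 1291 cells with none. In mature DC-like cells of CpG Rsad2 stood at 223 CPM (202 to 245) in 279 cells with 2 or 3 members and at 16.8 (14.5 to 19.5) in 1800 cells with none. Isg15, a ubiquitin-like modifier, differed less there, at 4417 CPM (4324 to 4512) and 2269 (2241 to 2298). Thus 1800 mature DC-like cells without an Ifit UMI held Isg15 at a level far above the 198 CPM of mature DC-like cells in Control. Actb, which encodes a cytoskeletal actin and served as a comparison, stood at 28675 and 27172 CPM in the same cells. Of 12 such comparisons for Actb, 2 were higher, 7 lower and 3 overlapped, so intervals often lay apart for this gene too, in both directions. No such count was made over all genes, so the 67 of 72 has no background beside it.

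The make-up of the Ifit signal differed between the types. Of the summed UMIs of the 3 genes, Ifit1 gave 63.4% (61.7 to 65.1) in mature DC-like cells of CpG, against 34.6% (31.1 to 38.2) in resting cDC2-like, 32.2% (30.8 to 33.6) in LysoDC-like and 28.4% (26.9 to 30.1) in macrophage-like cells. In R848 Ifit1 gave 58.2% (55.9 to 60.4) in mature DC-like cells and 39.3% (35.2 to 43.6), 38.9% (37.7 to 40.2) and 36.8% (35.5 to 38.1) in the others. Ifit3 gave 49.2% (45.5 to 52.9) in resting cDC2-like cells of CpG and 21.5% (20.05 to 23.0) in mature DC-like cells. Among the 4 compared types of the treated libraries, macrophage-like cells had the highest share of Ifit2, 34.3% (32.6 to 36.0) in CpG and 30.4% (29.1 to 31.6) in R848, where the LysoDC-like interval (27.7 to 29.9) overlapped it. In Control, Ifit1 gave 50.8% (45.6 to 56.0) in LysoDC-like cells and 37.5% (30.2 to 45.3) in resting cDC2-like cells, and the 14 UMIs of mature DC-like cells do not fix a share there.

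**Figure D4:**
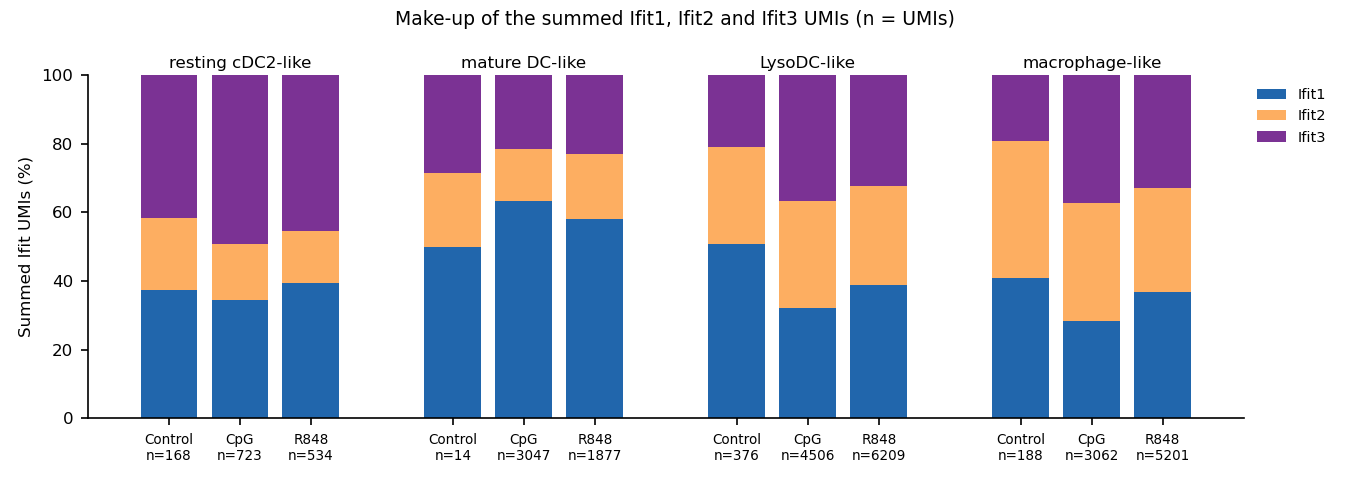
Share (%) of Ifit1 (blue), Ifit2 (orange) and Ifit3 (purple) in their summed UMIs, by phagocyte type and library, with the number of UMIs under each bar. Ifit1 makes up 63.4% and 58.2% in treated mature DC-like cells and 28.4% to 39.3% in the other treated types.

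The mature DC-like cells were themselves mixed. Cells were clustered without the members and without the genes of the interferon-related lists given below. The CpG library then gave 8 clusters of the mature DC-like kind, with 207 to 597 cells each. Genes outside those lists that followed the members in level, such as Slfn1, were not excluded, so the clusters are not free of the interferon signal. In the 3 with a summed cDC1 marker level under 4 UMIs per 10000, Ifit3 stood at 72.0, 76.5 and 121 CPM, and in the 5 with a level over 7 it stood at 6.68 to 36.9 CPM. Ifit1 overlapped between the same clusters, at 138 to 180 CPM in the first and 64.6 to 193 in the second. By the same limits, the R848 clusters under 4 held Ifit3 at 47.6 and 42.4 CPM. Those over 7 held it at 31.4 CPM or less, with none in a cluster of 14 cells. Clusters between the limits, with cDC1 levels of 4.74 and 5.82, held 29.6 and 21 CPM. These were below the 31.4 CPM of the cluster with a cDC1 level of 14.8. The clusters were compared after their values had been seen. Cells with an Xcr1 UMI and no Sirpa UMI, the pattern of cDC1, held Ifit3 at 9.07 CPM (1.87 to 26.5, 42 cells) in CpG, against 30.7 (24.1 to 38.5, 346 cells) in cells with Sirpa and no Xcr1. The first level rests on 3 UMIs, and the intervals overlapped. For Ifit1 the levels were 136 CPM (99.3 to 182) and 82.3 (71.3 to 94.5), the opposite order. In R848 the intervals of these groups overlapped for Ifit1, at 52.1 (40.7 to 65.8) and 58.2 (47.8 to 70.1), and for Ifit3, at 24.2 (16.7 to 34.0) and 40.2 (31.7 to 50.3).

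Between the CpG and R848 libraries none of the 12 pairs of member and type differed by 2-fold. Over all genes, 0.206%, 1.76%, 0.205% and 0.388% were called higher in CpG than in R848 in resting cDC2-like, mature DC-like, LysoDC-like and macrophage-like cells, and 0.303%, 0.659%, 0.741% and 1.30% were called lower. Ifit1 differed by less, and in opposite directions: the ratio of CpG to R848 was 0.761 (0.713 to 0.813) in LysoDC-like and 0.669 (0.617 to 0.725) in macrophage-like cells, and 1.42 (1.32 to 1.53) in mature DC-like cells. In resting cDC2-like cells it was 1.0 (0.830 to 1.21). The ratio of Ifit2 was between 0.978 and 1.20 in the 4 types, with intervals that held 1. Ifit3 had intervals that held 1 in LysoDC-like and macrophage-like cells, and ratios of 1.21 (1.07 to 1.37) in mature DC-like and 1.24 (1.05 to 1.46) in resting cDC2-like cells. The libraries differ in agent, dose and preparation, and these cannot be told apart.

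**Figure D5:**
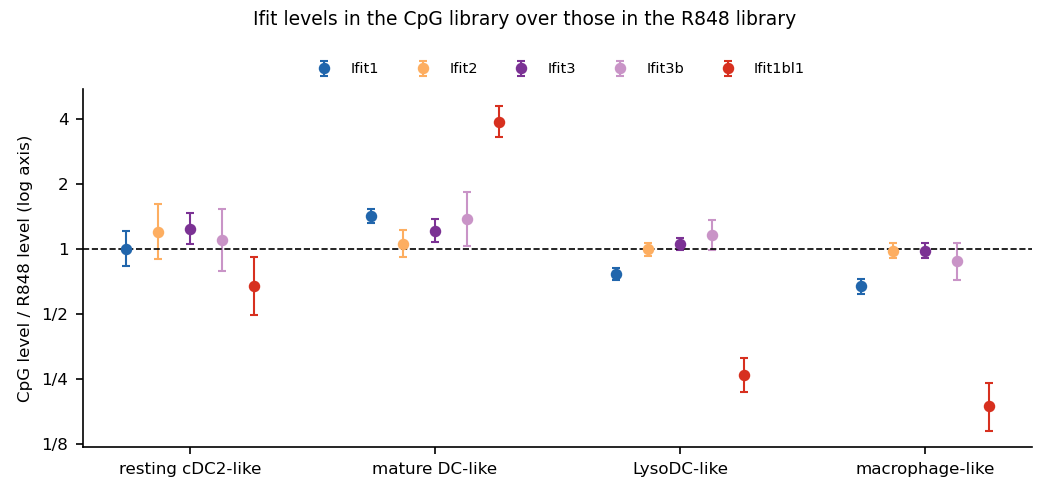
Ratio of the level in the CpG library to that in the R848 library (log axis) for Ifit1, Ifit2, Ifit3 and the related Ifit3b and Ifit1bl1 in 4 phagocyte types, with 95% exact counting intervals and a dashed line at a ratio of 1. Ifit1 and Ifit1bl1 lie below the line in LysoDC-like and macrophage-like cells and above it in mature DC-like cells.

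Ifit1bl1, a relative of Ifit1 between Ifit3 and Ifit3b in the cluster, showed the same opposition on a larger scale. It stood at 12.5 CPM (10.5 to 14.7) in LysoDC-like cells of CpG and 47.8 (44.3 to 51.5) in those of R848, and at 14.2 (11.1 to 17.9) and 76.3 (70.0 to 82.9) in macrophage-like cells. Mature DC-like cells had 48.5 CPM (45.2 to 51.9) in CpG and 12.5 (10.7 to 14.6) in R848. These differences in the 3 types passed the 2-fold rule, with CpG lower in the first pair and higher in the last. Both treated libraries were called higher than Control for it in all 4 types. In Control it held 35 UMIs (3.17 CPM) in resting cDC2-like, 2 in LysoDC-like, 1 in macrophage-like and none in mature DC-like cells. With a count of 0 in Control, the interval of the ratio in mature DC-like cells has no upper end, and it began at 26.4 for CpG and at 6.77 for R848.

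Ifit3b, a near copy of Ifit3, was called higher in both treated libraries in all 4 types. It stood at 0.823 CPM (0.425 to 1.44) in LysoDC-like Control cells, 26.8 (23.9 to 29.9) in CpG and 23.1 (20.7 to 25.7) in R848. In mature DC-like cells it was at 7.99 CPM (6.70 to 9.46) and 5.82 (4.61 to 7.25), with none in Control, and the intervals of the ratios began at 4.31 for CpG and 3.11 for R848. Its promoter window matched that of Ifit3 at 259 of 260 aligned bases, beside 14 gapped positions. Ifit1bl2 stayed under 1 CPM in all 4 types of every library, with at most 10 UMIs in 1 type, although it starts 145 bases from Ifit1 on the other strand. The nearest neighbours outside the cluster showed no such change: Lipa, which encodes lysosomal acid lipase, was between 138 and 176 CPM in LysoDC-like cells of the 3 libraries and was not called in any type. Ch25h, Gm26902 and Slc16a12 stayed under 1 CPM.

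Signalling genes that act before the Ifit genes changed in part. Lists of related genes were scored where a gene reached 20 CPM and 20 UMIs in 1 of the compared libraries. No interferon ligand of 21 reached this level in any type, so no transcript of an interferon was seen at a level that could be compared. Among the receptor and signalling genes, Irf7, an interferon-induced transcription factor, and Stat2, a transcription factor of the interferon pathway, were called higher in every type and both treated libraries. Irf7 stood at 19.4 CPM in Control, 460 in CpG and 644 in R848 in mature DC-like cells, and at 68.4, 779 and 1000 in LysoDC-like cells. Ifngr1, a chain of the interferon-gamma receptor, was called lower in mature DC-like cells of both treated libraries (318 CPM in Control, 38.5 and 41.3 in CpG and R848) and in macrophage-like cells of R848 (456 and 157). The background of genes called lower was 3.95% in mature DC-like cells of CpG and 3.79% in those of R848, and 0.784%, 0.382% and 0.435% in resting cDC2-like, in LysoDC-like and in macrophage-like cells of CpG. For R848 the last 3 shares were 0.556%, 0.841% and 1.36%.

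Of the other interferon-induced effectors, 30 of 31 were in the gene table. In CpG 22 of 25 measured genes were called higher in resting cDC2-like, 24 of 25 in mature DC-like and 27 of 30 in both LysoDC-like and macrophage-like cells, and in R848 18 of 23, 21 of 24, 25 of 30 and 29 of 30. None was called lower. The median log2 ratio of the list was between 1.67 and 2.12, while that of all tested genes was between 0.003 and 0.16. This list was drawn up with earlier results of these data known. Oasl2, an oligoadenylate synthetase-like protein, went from 19.9 CPM in LysoDC-like Control cells to 214 in CpG and 181 in R848, and Isg15 from 72.5 to 1047 and 764. Among RNA and DNA sensors, 3 to 7 of 9 to 14 measured genes were called higher, with Dhx58, Zbp1 and Eif2ak2 in every type. Zbp1, a sensor of Z-form nucleic acid, went from 14.8 to 238 and 139 CPM in resting cDC2-like cells.

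Of 5 to 7 measured negative regulators, 0 to 2 were called higher in a type. Usp18, which removes Isg15 from proteins and blocks the interferon receptor, was called higher in both treated libraries in 3 types. In mature DC-like cells it stood at 177 CPM in Control, 343 in CpG and 294 in R848, which did not reach 2-fold. Adar, an RNA-editing enzyme, was called higher in LysoDC-like and macrophage-like cells of both libraries, at 12.3 CPM in Control, 35.3 in CpG and 35.9 in R848 in the former. Socs3, an inhibitor of cytokine signalling, was called lower in mature DC-like cells of R848 (75.9 CPM in Control and 26.6 in R848). Of 13 subunits of translation initiation factor 3, which Ifit proteins can bind, Eif3f was called lower in all 4 types of both libraries and the other 12 in none. Eif3f stood at 344 CPM in LysoDC-like Control cells, 107 in CpG and 133 in R848. Among 10 genes used as a stable reference, Pgk1 was called lower in mature DC-like cells of both libraries and in LysoDC-like cells of CpG, Hprt was called lower in mature DC-like cells of R848, and the others were not called.

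Over the 13 pairs of library and type with at least 50 cells, the genes whose level followed the mean of the 3 members most closely were Stat2, Dhx58, Slfn8, Irgm1, Oasl2, Oas3, Eif2ak2 and Slfn1, with Pearson's r from 0.971 for Stat2 to 0.962 for Slfn1, among 3812 genes that reached 50 CPM. Stat2 ran from 11.9 CPM to 105 CPM and Slfn1 from 0.993 to 171. The members themselves were correlated at 0.922 (Ifit1 and Ifit2), 0.951 (Ifit1 and Ifit3) and 0.946 (Ifit2 and Ifit3). These values describe 13 points that share 3 libraries, and most of the range comes from the difference between Control and the treated libraries.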

How the data were processed

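The deposited files hold UMI counts per gene and cell, made by the authors with Cell Ranger 2.0.0 on mm10, per the submitters' processing notes; mice were pooled before sequencing. Barcodes with under 500 genes or over 10% mitochondrial UMIs were dropped, and doublets were marked by comparison with simulated doublets among 50 neighbours (Scanpy 1.11.5, scikit-learn 1.9.0) and removed, 202 to 225 a library. Libraries held 43537067 (Control), 43767864 (CpG) and 46556726 (R848) UMIs, a median of 7494, 7501 and 8223 a cell.

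Types were gated per cell on marker UMIs per 10000, with the same limits in all libraries. The cDC1 markers include Irf8 and Tlr3, which interferon can induce. In Control, CpG and R848, 379, 112 and 335 cells lay near the limit for lysozyme-high cells, and 129, 118 and 186 near that for mature cells. UMIs were summed per type and scaled to CPM (per 1000000), with exact Poisson intervals for levels, exact Clopper-Pearson intervals for shares and exact conditional binomial intervals for ratios (SciPy 1.17.1). Each library is 1 sample, so no p-value was computed. The call rule was tested on simulated Poisson counts at the depth of LysoDC-like cells, which lack the uneven spread of UMIs over cells. The gate, the doublet removal, the clustering and the free RNA estimate were not tested in this way. Free RNA was estimated from C1qa, C1qb and C1qc in mature DC-like cells of a stricter gate.

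The members, lists and rules were chosen with earlier results of these data known. The gate limits, the thinning depth, the splits of mature DC-like cells, the free RNA estimate and the removal of the interferon-high Control cluster were chosen after the data were seen. The named genes are the members, up to 4 measured genes per list with the largest summed log2 ratio, the 8 most alike in pattern, the other Ifit genes and the neighbours of the cluster. Hprt, Xcr1, Sirpa and the marker genes were named outside this rule. Not every gene that the rule names is reported here.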

Additional observations from a re-analysis of the deposited data

Results flagged for a closer look

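The ratio of CpG to R848 for Ifit1 lay below 1 in LysoDC-like (0.761) and macrophage-like cells (0.669) and above 1 in mature DC-like cells (1.42). For Ifit1bl1 it was 0.672 in resting cDC2-like, 0.261 in LysoDC-like and 0.186 in macrophage-like cells, and 3.87 in mature DC-like cells. These were picked out because 2 types moved in opposite directions with intervals that left out 1. The difference between types was not tested, since each treatment has 1 library.

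Cells outside the compared types also held members of the Ifit family. In cells that were both lysozyme-high and mature, the summed level of Ifit1, Ifit2 and Ifit3 was 348 CPM in 27 CpG cells and 263 CPM in 133 R848 cells, with no UMI in 9 Control cells, which allows up to 51.8 CPM by the exact Poisson interval. Proliferating cells stood at 293 CPM in CpG and 215 CPM in R848, against 25.4 CPM in Control. Cells with markers of other cell types stood at 254 CPM in CpG and 332 CPM in R848, against 18.9 CPM in Control. A few cells carried this: 50% of the UMIs lay in 3 of 59 CpG cells and 4 of 100 R848 cells. Among clusters of such cells, the larger were low in Ifit1 (6.35 CPM in 41 CpG cells and 4.35 in 50 R848 cells) and the smaller high (455 CPM in 11 CpG cells and 177 in 31 R848 cells).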

How the results depend on the processing

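With 1 library per treatment, the limits of these results are the lack of replicates, the few Control UMIs in mature DC-like cells and the rebuilt cell types. No paired analysis was possible because each treatment has a single library. All 12 pairs of member and type were called higher under all other settings for CpG, except that with a minimum of 100 CPM, which leaves fewer pairs to count, 7 passed. For R848 6 passed at that minimum and 11 with 20 CPM added. Log2 ratios against Control ranged from 0.99 to 4.90 over all settings, no called ratio changed sign, and over all 3 comparisons 48 ratios moved beyond their counting interval and 456 did not. No pair differed by 2-fold between CpG and R848 under any setting (0 of 12).

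The share of positive cells over all 5 types was 8.61% in Control, 49.4% in CpG and 52.8% in R848. This pools types in different proportions: mature DC-like cells were 7.25%, 56.9% and 45.9% of kept cells. Within resting cDC2-like and mature DC-like cells the share was higher in CpG than in R848, with intervals that overlapped in both types. Where 2 UMIs were needed the share over all 5 types was 2.08%, 33.0% and 36.7%, and after thinning 3.91%, 33.9% and 36.8%. With free RNA taken away it was 46.1% in CpG and 48.7% in R848, and with free RNA estimated from all mature DC-like cells, a setting added after seeing the data, 46.0% and 45.4%. The stricter gate gave 47.9% and 49.6%. A minimum of 1000 genes a cell gave 54.4% in R848. The cause of these shifts was not tested.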
